A study of Homo sapiens with 6 samples.

Results

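The suppressors of cytokine signalling, SOCS1 to SOCS7 and CISH, were described in 2 human B cell lymphoma lines. Members were found by name: every row of the 6 library tables whose gene name field contained 1 of the 8 symbols was taken, and rows that also named another gene were marked as merged. All 8 genes were found in each library, among 56584 gene symbols named in the tables. The tested line, LY19Y646F, is labelled as constitutively expressing the mutant EZH2-Y646F from a CMV promoter, and LY19WT is labelled as EZH2 wild type. EZH2 is the methyltransferase of Polycomb repressive complex 2. Each line gave 3 libraries of messenger RNA, which the series calls biological replicates, from untreated cells at passages 10 to 15. The labels do not say whether they came from separate cultures or whether the mutant line is 1 clone, so the p-values measure only the spread between these libraries.

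SOCS proteins are feedback inhibitors of cytokine receptors. A cytokine activates receptor-bound JAK kinases, which phosphorylate STAT transcription factors, and STATs in turn induce some of the SOCS genes. Each SOCS protein has an SH2 domain, which binds phosphotyrosine on a receptor or kinase, and a SOCS box, which recruits elongins B and C and the cullin CUL5 to form a ubiquitin ligase. CISH, SOCS1, SOCS2 and SOCS3 are the members best known as cytokine-induced, while SOCS4 to SOCS7 are studied mainly in growth factor and insulin signalling.

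Levels are given as FPKM, a read abundance scaled for transcript length and library size, as the authors deposited them. The depth of each library is unknown, so precision rests on the 3 libraries per line and on the 95% confidence limits that Cufflinks wrote beside each value. Summed FPKM ranged from 806102 to 1020941 per library, and in LY19WT replicate 3 a share of 27.5% came from its 10 top rows, against 5.71% to 9.38% in the other libraries. EZH2 measured 70.2, 80.4 and 93.5 FPKM in LY19Y646F and 60.6, 76.5 and 74.7 FPKM in LY19WT, in rows that do not separate mutant from native transcripts. The lines also differed in B cell stage markers. Of 9 mature B cell markers found, 8 averaged at least 1 FPKM in LY19Y646F and 4 in LY19WT, where MS4A1, BLK, CD40 and FCRLA were each below that level. Of 10 precursor B cell markers, 5 reached it in LY19Y646F and 9 in LY19WT, and their summed level was 98.0 to 99.4 FPKM in LY19Y646F against 924 to 2480 FPKM in LY19WT. Most of the LY19Y646F sum was MME, at 84.1, 81.5 and 84.6 FPKM. MME went against the rest of the sum, at 46.1, 74.3 and 48.3 FPKM in LY19WT. Among 8 T cell markers, only TRAC reached 1 FPKM in either line, and CD3D, CD3E, CD3G, CD2 and CD28 were listed at 0 in every LY19WT library. Of 8 myeloid markers, 0 reached 1 FPKM in LY19Y646F and 2 did in LY19WT, LYZ at 11.9 FPKM and CD33 at 5.33 FPKM, with S100A8 and S100A9 listed at 0 throughout. Of 6 plasma cell markers, 4 reached 1 FPKM in LY19Y646F and 5 in LY19WT. Each summed level in LY19Y646F lay below the LY19WT range of 202 to 335 FPKM. Among them PRDM1 averaged 0.133 FPKM in LY19Y646F and 6.29 FPKM in LY19WT, and XBP1 26.5 FPKM in LY19Y646F and 155 FPKM in LY19WT. TNFRSF17, of the same list, went the other way, with 12.4 FPKM in LY19Y646F and 0.0129 FPKM in LY19WT. The part of these marker differences in the SOCS values was not tested. Whether the lines differ only in EZH2 could not be checked from these tables, so each difference below is one between lines.

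SOCS2 was nearly silent in LY19Y646F and was the most abundant member in LY19WT. SOCS5 was also lower in LY19Y646F, SOCS4 and SOCS6 differed little, and SOCS1 stood higher in LY19Y646F with a wide spread. SOCS3 and CISH were at or near 0 FPKM in both lines, and SOCS7 could not be compared because its row was joined to a neighbour in part of the libraries. Differences were tested with limma on log2(FPKM + 1), with Benjamini-Hochberg adjustment over all 10715 genes that averaged at least 0.5 FPKM and had rows of their own. Of the 8 members 5 entered that fit, and 2 of those passed an adjusted p of 0.05, both lower in LY19Y646F. Across all tested genes 33.3% passed, 16.7% higher and 16.5% lower, so the share among the members is no result about the family. For each of the 5, every library of one line lay on the same side of every library of the other, with 2 members higher and 3 lower in LY19Y646F. Of all tested genes 48.6% were separated in this way, 24.4% higher and 24.2% lower, so this too is no result about the family. SOCS2 entered the fit through its level in LY19WT alone.

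**Figure D1:**
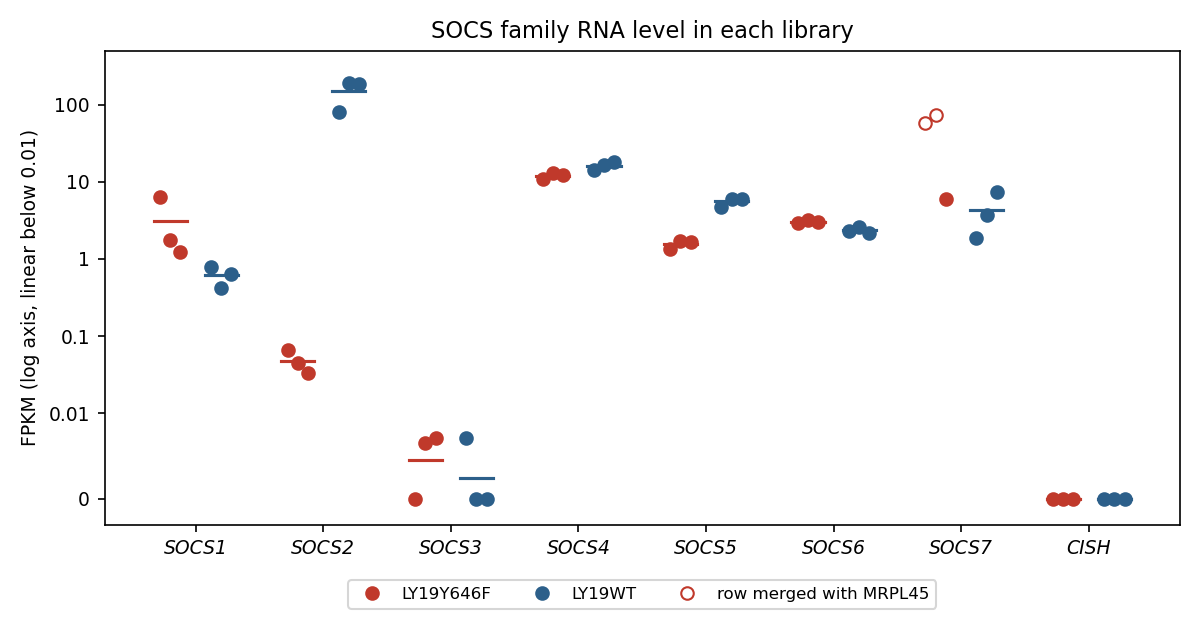
FPKM of the 8 SOCS family genes in each library, LY19Y646F in red and LY19WT in blue, on a log axis that is linear below 0.01. Points are libraries in replicate order, lines are means of 3 libraries, and open points are rows that name both MRPL45 and SOCS7. SOCS2 lies below 0.1 FPKM in LY19Y646F and above 80 FPKM in LY19WT.

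SOCS2 encodes an inhibitor of growth hormone and prolactin receptor signalling whose own transcription is driven by STAT5. Its row (hg19 chromosome 12, 93963590 to 93977263, the same extent in all 6 libraries) measured 0.0658, 0.0442 and 0.0332 FPKM in LY19Y646F, against 81.0, 192 and 185 FPKM in LY19WT. The LY19Y646F libraries were uniformly low, and LY19WT replicate 1 stood below the other LY19WT libraries. Each Cufflinks interval in LY19Y646F reached down to 0, with upper limits of at most 0.224 FPKM. The lowest lower limit in LY19WT was 77.2 FPKM, or 344 times that bound. The means were 0.0477 ± 0.0166 FPKM in LY19Y646F and 152 ± 62.0 FPKM in LY19WT (SD, n = 3 each). On the log2(FPKM + 1) scale the difference was -7.09 (SE 0.36, 95% interval -8.00 to -6.19), with a limma adjusted p of 0.00010. This scale understates the fold of low genes. Of the 10715 tested genes 10, SOCS2 included, fell by at least 7 on that scale, or 0.0933%. This cutoff lies just under the SOCS2 value, and SOCS2 has rank 10 from the largest fall, so the share only restates its rank. The exact two-sided permutation p was 0.10, the smallest that 3 libraries against 3 can give. In RNA from a bulk culture, fewer cells with a transcript and less transcript per cell cannot be told apart.

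The region around SOCS2 showed the same split between the lines in rows that the SOCS2 value does not include. Between 30 kb before and 30 kb after the gene, the assembly placed 0 rows without a gene name in each LY19Y646F library and 15 to 19 in each LY19WT library. Before the gene there were 11, 11 and 10 such rows in LY19WT, 32 in all, lying between -23.7 kb and -0.11 kb from the SOCS2 start. Their FPKM ranged from 0.661 to 6.43, with a median of 1.03. These rows were therefore far below SOCS2 itself in level. They lie inside the extent of SOCS2-AS1, a long noncoding RNA gene that overlaps the start of SOCS2 (93936239 to 93965544). The row that names SOCS2-AS1 was listed at 0.00545, 0.0217 and 0.00576 FPKM in LY19Y646F and at 0 in each LY19WT library. The authors' deposited table of line means gives SOCS2-AS1 0.0178 FPKM in LY19Y646F and 16.7 FPKM in LY19WT. The library tables and the line table thus differ in the level given to SOCS2-AS1, and the library tables carry no strand for this stretch. Which library rows hold the RNA that the line table gives to SOCS2-AS1 was not tested. Around the other members, unnamed rows within the same distance numbered 0 to 7 per LY19Y646F library and 0 to 8 per LY19WT library.

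**Figure D2:**
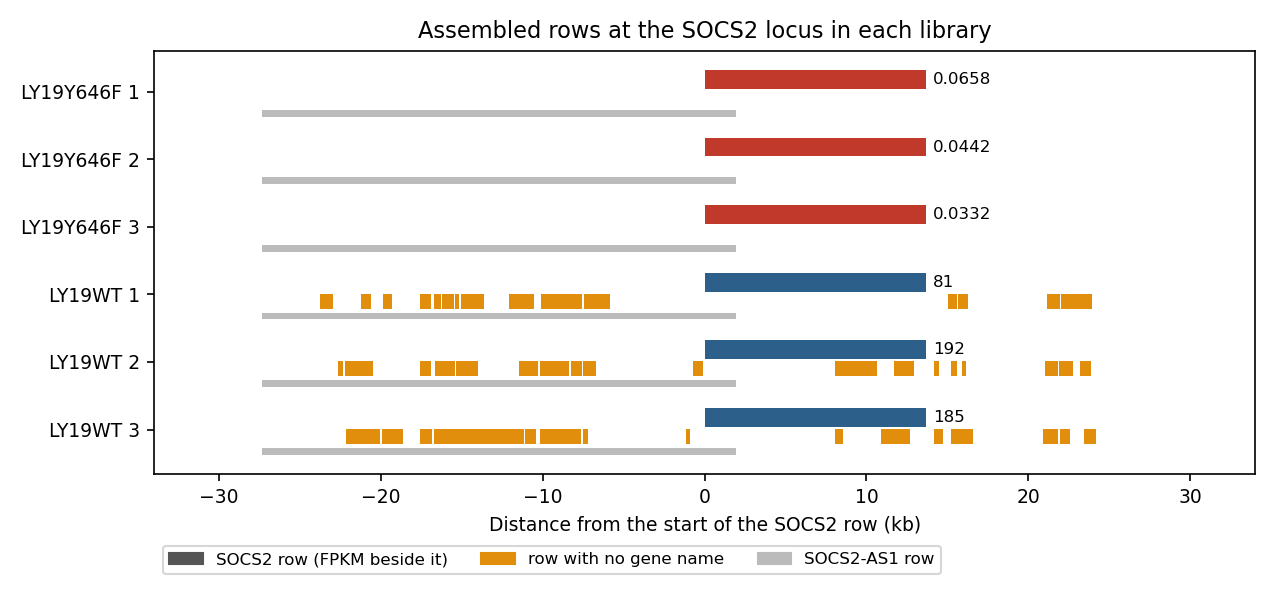
Rows at the SOCS2 locus in each library, by distance in kb from the start of the SOCS2 row. Red or blue bars are the SOCS2 row with its FPKM, orange bars are rows with no gene name and grey bars the SOCS2-AS1 row. Orange bars appear in the 3 LY19WT libraries and in 0 of the LY19Y646F libraries.

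SOCS5, which in mice has been linked to the interleukin 4 receptor and which also acts on the EGF receptor, was the other member that passed. Its row (chromosome 2, 46926091 to 46990268) measured 1.36, 1.72 and 1.64 FPKM in LY19Y646F and 4.73, 5.97 and 5.97 FPKM in LY19WT. Values within a line were close, and the highest LY19Y646F library lay below the lowest LY19WT library. The means were 1.57 ± 0.187 and 5.56 ± 0.717 FPKM in LY19Y646F and LY19WT (SD, n = 3 each), a ratio of 0.283. SOCS5 fell by 1.35 on the log2(FPKM + 1) scale (SE 0.14, limma adjusted p of 0.0016). The authors' deposited table gives 1.73 FPKM in LY19Y646F and 6.14 FPKM in LY19WT.

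SOCS4, the closest relative of SOCS5 in the family, measured 10.9, 12.9 and 12.4 FPKM in LY19Y646F and 14.0, 16.4 and 18.2 FPKM in LY19WT (chromosome 14, 55493948 to 55516206 in the shortest row). All LY19Y646F values lay below all LY19WT values, by a narrow margin. The difference of -0.39 (SE 0.14, 95% interval -0.74 to -0.04) had a limma adjusted p of 0.086 and did not pass. It passed with library weights, at an adjusted p of 0.015.

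SOCS6, which binds the receptor KIT and insulin receptor signalling proteins, measured 2.93, 3.17 and 3.02 FPKM in LY19Y646F and 2.30, 2.57 and 2.15 FPKM in LY19WT (chromosome 18, 67956137 to 67997436 in the shortest row and to 67997589 in the longest). The LY19Y646F libraries were all above the LY19WT libraries, with means of 3.04 ± 0.125 and 2.34 ± 0.213 FPKM in LY19Y646F and LY19WT (SD, n = 3 each). The difference of 0.28 (SE 0.12, 95% interval -0.02 to 0.58) had a limma adjusted p of 0.14 and did not pass. Quantile scaling between libraries gave 0.55 and an adjusted p of 0.032, and library weights gave 0.27 and an adjusted p of 0.042.

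SOCS1 blocks JAK kinases directly through a short inhibitory region and is induced by interferon gamma. It measured 6.41, 1.78 and 1.23 FPKM in LY19Y646F and 0.776, 0.417 and 0.647 FPKM in LY19WT (chromosome 16, 11348262 to 11350036, but from 11347072 in LY19WT replicate 3). Every LY19Y646F library was higher than every LY19WT library, and LY19Y646F replicate 1 stood far above the rest. The means were 3.14 ± 2.84 FPKM in LY19Y646F and 0.613 ± 0.182 FPKM in LY19WT (SD, n = 3 each). The difference of 1.16 (SE 0.48, 95% interval -0.06 to 2.37) had a limma adjusted p of 0.13. Without LY19Y646F replicate 1 it was 0.63, with an adjusted p of 0.0503 that still missed the threshold, and with library weights it was 0.88 with an adjusted p of 0.023. The B cell receptor chain gene CD79A was also highest in LY19Y646F replicate 1, at 319 FPKM against 80.3 and 65.0 FPKM in the other LY19Y646F libraries, and 94.0, 30.6 and 52.2 FPKM in LY19WT. Its part in the SOCS1 spread was not tested. RMI2, which overlaps SOCS1 in position, measured 37.6, 43.0 and 39.5 FPKM in LY19Y646F and 18.6, 20.2 and 18.8 FPKM in LY19WT, so the high SOCS1 library was not high in RMI2.

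SOCS3, the inhibitor that binds the shared interleukin 6 receptor chain gp130, was at the bottom of the scale in both lines. It was listed at 0, 0.00651 and 0.00712 FPKM in LY19Y646F and at 0.00713, 0 and 0 FPKM in LY19WT, with an upper confidence limit of at most 0.109 FPKM. It was below the level for testing. Without that filter the limma adjusted p was 0.77, for a difference of 0.003 (SE 0.007).

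CISH, the founding member of the family and a classical target of STAT5, was listed at 0 FPKM in all 6 libraries. No fold was computed, since a listed 0 can also be a failed estimate. The authors' deposited table, in contrast, gives CISH 0.00335 FPKM in LY19Y646F and 0.337 FPKM in LY19WT. In that table CISH shares its interval (chromosome 3, 50643921 to 50686875) with MAPKAPK3, a kinase gene whose row overlaps that of CISH and which has 5.28 FPKM in LY19Y646F and 15.2 FPKM in LY19WT there. The library tables give MAPKAPK3 4.53, 4.74 and 4.55 FPKM in LY19Y646F and 15.4, 11.9 and 10.4 FPKM in LY19WT, a row that in LY19WT replicate 3 also names RP11-804H8.6.

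The CISH promoter is shown because it carries the letters of the STAT-binding element, called GAS, at 4 places, while the gene was listed at 0 FPKM in all 6 libraries. RefSeq promoters were at hand for 5 members, CISH, SOCS1, SOCS3, SOCS4 and SOCS6, on GRCh38.p14. The 250 bases before the start were searched for TTCNNNGAA and for the same letters with 1 more N in the middle, patterns that read alike on both strands. CISH held 4 copies of TTCNNNGAA, with first bases at -241, -230, -129 and -112 counted from the start, none overlapping another, and 0 of the longer pattern. The other 4 members held 0 of either. Among 35116 promoters of this length 6.57% held TTCNNNGAA and 5.38% held the longer pattern. The CISH sequence lies on the minus strand (chr3:50611775-50612024, GRCh38.p14) and that of SOCS1, given for contrast, on the minus strand too (chr16:11256205-11256454), with motif copies in capitals.
CISH: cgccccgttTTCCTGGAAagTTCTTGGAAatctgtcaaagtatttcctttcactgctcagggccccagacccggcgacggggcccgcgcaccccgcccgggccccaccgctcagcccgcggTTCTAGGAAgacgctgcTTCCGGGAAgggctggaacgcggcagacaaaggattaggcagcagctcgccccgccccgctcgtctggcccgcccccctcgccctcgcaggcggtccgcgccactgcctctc
SOCS1: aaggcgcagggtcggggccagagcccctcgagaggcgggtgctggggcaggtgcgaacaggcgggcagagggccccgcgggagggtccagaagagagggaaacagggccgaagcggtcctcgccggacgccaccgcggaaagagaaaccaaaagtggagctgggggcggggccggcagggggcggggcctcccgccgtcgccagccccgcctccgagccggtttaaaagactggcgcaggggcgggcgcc
A match of letters is a description of the window and not a measured site.

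SOCS7, which binds insulin receptor substrates and the adaptor NCK, shows how the assembly of loci moved a value. In LY19Y646F it sat in a row shared with MRPL45, a mitochondrial ribosomal protein gene, in replicates 1 and 2, at 57.7 and 73.4 FPKM, and in a row of its own at 6.05 FPKM in replicate 3. In LY19WT it had a row of its own in each library, at 1.87, 3.74 and 7.32 FPKM. The only LY19Y646F library with an unmerged row thus lay inside the LY19WT range. MRPL45 alone measured 66.9 FPKM in LY19Y646F replicate 3 and 35.4 and 39.9 FPKM in LY19WT replicates 1 and 3. The unmerged SOCS7 rows began at the same base (chromosome 17, 36508111) and ended at different ones, spanning 50500 bases in LY19Y646F replicate 3 and 54047, 47909 and 53360 bases in LY19WT. Unnamed rows overlapped the far end of SOCS7 or lay just past it, with up to 12.9 FPKM in LY19Y646F replicate 3 and up to 5.45, 7.52 and 13.1 FPKM in the LY19WT libraries. With merged rows kept, the exact two-sided permutation p of the mean FPKM was 0.20, beside a difference of 2.70 on the log2(FPKM + 1) scale. With the 4 unmerged rows on chromosome 17 alone the difference was 0.54, a value with no test. Each library also lists SOCS7 on an alternative patch sequence of that chromosome, at 0 FPKM in all 6, and those rows were not used.

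**Figure D3:**
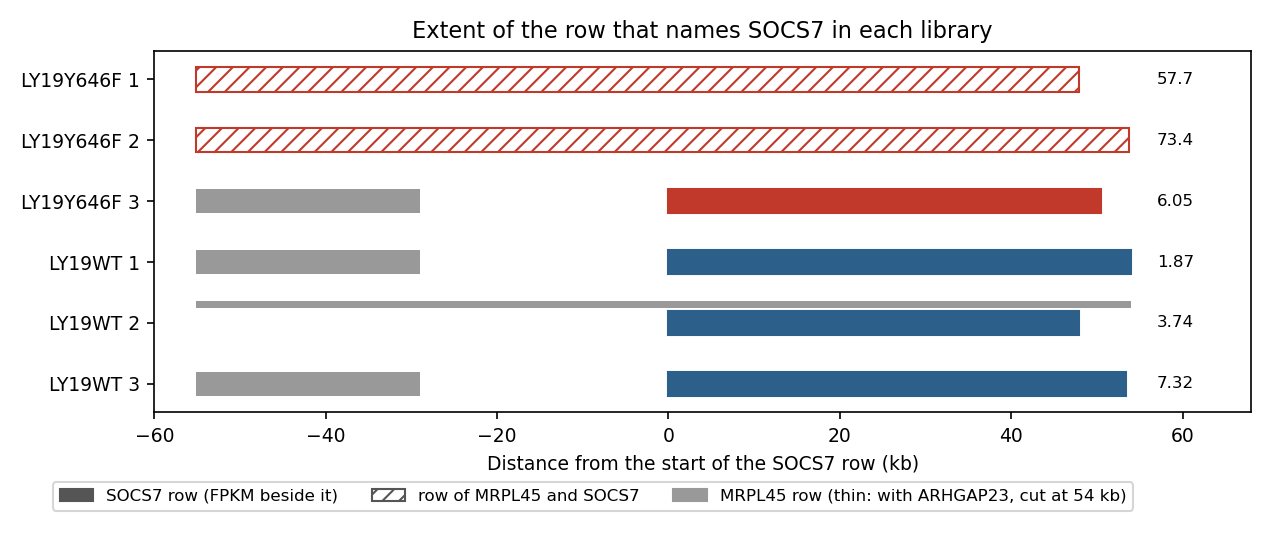
Extent of the row that names SOCS7 in each library, by distance in kb from the start of the unmerged row, with its FPKM at the right. Hatched bars are rows that name MRPL45 and SOCS7 together, solid red or blue bars are SOCS7 alone, and grey bars are MRPL45, thin where that row also names ARHGAP23. The merged rows carry 57.7 and 73.4 FPKM, the others 1.87 to 7.32 FPKM.

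The order of levels within the family differed between the lines, at its top and below it. In LY19Y646F the order of means was SOCS4 at 12.1 FPKM, SOCS1 at 3.14, SOCS6 at 3.04, SOCS5 at 1.57, SOCS2 at 0.0477, SOCS3 at 0.00454 and CISH at 0. In LY19WT it was SOCS2 at 152 FPKM, SOCS4 at 16.2, SOCS5 at 5.56, SOCS6 at 2.34, SOCS1 at 0.613, SOCS3 at 0.00238 and CISH at 0. FPKM is scaled per length, so these levels can be set beside each other. Neighbours in the order whose libraries overlapped were SOCS1 and SOCS6 in LY19Y646F, and SOCS3 and CISH in both lines. The rank of SOCS1 in LY19Y646F rests on replicate 1: its other libraries, at 1.78 and 1.23 FPKM, lay below every SOCS6 library and on either side of the SOCS5 range of 1.36 to 1.72 FPKM. SOCS7 was left out because of its merged rows. SOCS2 held 0.304%, 0.225% and 0.181% of the summed FPKM of these 7 genes in LY19Y646F, against 78.8%, 88.3% and 87.3% in LY19WT. Without SOCS2 the sum was 21.6, 19.6 and 18.3 FPKM in LY19Y646F and 21.8, 25.3 and 26.9 FPKM in LY19WT. The 3 LY19Y646F sums without SOCS2 all lay below the LY19WT sums, with LY19WT replicate 1 close to LY19Y646F replicate 1.

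The kinases and STATs that the family feeds back on were set beside it, from lists chosen with earlier results of these data known. The counts of every list stand against the background given above, where 16.7% of the genes tested passed as higher and 16.5% as lower. Of 10 JAK and STAT genes considered 6 were tested, 3 were lower in LY19Y646F and 0 higher. STAT5A, which transmits growth hormone, prolactin and interleukin 2 family signals and drives SOCS2 and CISH, measured 0.759, 0.284 and 0.286 FPKM in LY19Y646F and 34.5, 30.9 and 27.6 FPKM in LY19WT (limma adjusted p of 5.2e-05). Its paralog STAT5B measured 5.08, 5.22 and 5.69 FPKM in LY19Y646F and 20.9, 23.3 and 22.4 FPKM in LY19WT (limma adjusted p of 0.00014). STAT3, which drives SOCS3, fell by 0.96 on the log2(FPKM + 1) scale (limma adjusted p of 0.0025). STAT5A, STAT5B and SOCS2 were all lower without overlap between the lines, as were 24.2% of all tested genes. STAT5A, like GBP4, IFIT3 and IFI44 below, averaged under 0.5 FPKM in LY19Y646F and was tested through its level in LY19WT alone. IL10RA, IFNGR2, BCL3 and ASB2 below were tested through LY19Y646F alone, and SPRY1, DUSP6 and IL15RA through LY19WT alone, as was IL13RA1. JAK1 did not pass, at 24.7, 31.0 and 31.0 FPKM in LY19Y646F and 28.9, 34.1 and 33.8 FPKM in LY19WT. The median difference of the 6 genes was -1.42, against -0.03 over all tested genes. This median depends on TYK2, which did not pass and fell by 2.60 (SE 1.66). TYK2 was listed at 0 FPKM in LY19Y646F replicate 2, against 30.1 and 74.0 FPKM in replicates 1 and 3. The authors' deposited table gives TYK2 86.4 FPKM in LY19Y646F and 98.8 FPKM in LY19WT, a far smaller difference.

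Genes listed as responding to cytokine signalling did not share 1 direction. Among interferon-induced genes, 7 of 9 tested were lower in LY19Y646F and 0 higher (77.8% called, against 33.3% of all tested genes), with a median of -2.24. IRF1, an interferon-induced factor that activates SOCS1, measured 4.62, 3.67 and 3.03 FPKM in LY19Y646F and 32.1, 24.0 and 29.8 FPKM in LY19WT (limma adjusted p of 0.00032). The mean of SOCS1, by contrast, was higher in LY19Y646F, without passing the test. GBP4, a guanylate-binding protein, fell by 3.25 on the log2(FPKM + 1) scale, the interferon-induced IFIT3 by 2.57 and IFI44 by 2.08 (limma adjusted p of 4.8e-05, 9.3e-05 and 0.0020). Of 12 tested genes listed as targets of STAT5 or STAT3, 4 were higher and 2 lower, with a median of 0.15. PIM1, a survival kinase, measured 7.13, 8.19 and 6.43 FPKM in LY19Y646F and 1.65, 1.99 and 1.84 FPKM in LY19WT (limma adjusted p of 0.00079). ID2, an inhibitor of helix-loop-helix transcription factors, was lower, at 61.8, 50.4 and 49.2 FPKM in LY19Y646F and 233, 290 and 199 FPKM in LY19WT (limma adjusted p of 0.00060), and SPRED1 was the other lower gene. PIM1 and ID2 thus differed in direction, and SOCS2 had that of ID2. BCL3, an IkB family protein, rose by 2.71, BCL6, the germinal centre repressor, by 2.24, and TNFRSF13B, a receptor for BAFF and APRIL, by 0.68 (limma adjusted p of 0.013, 0.047 and 0.030).

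**Figure D4:**
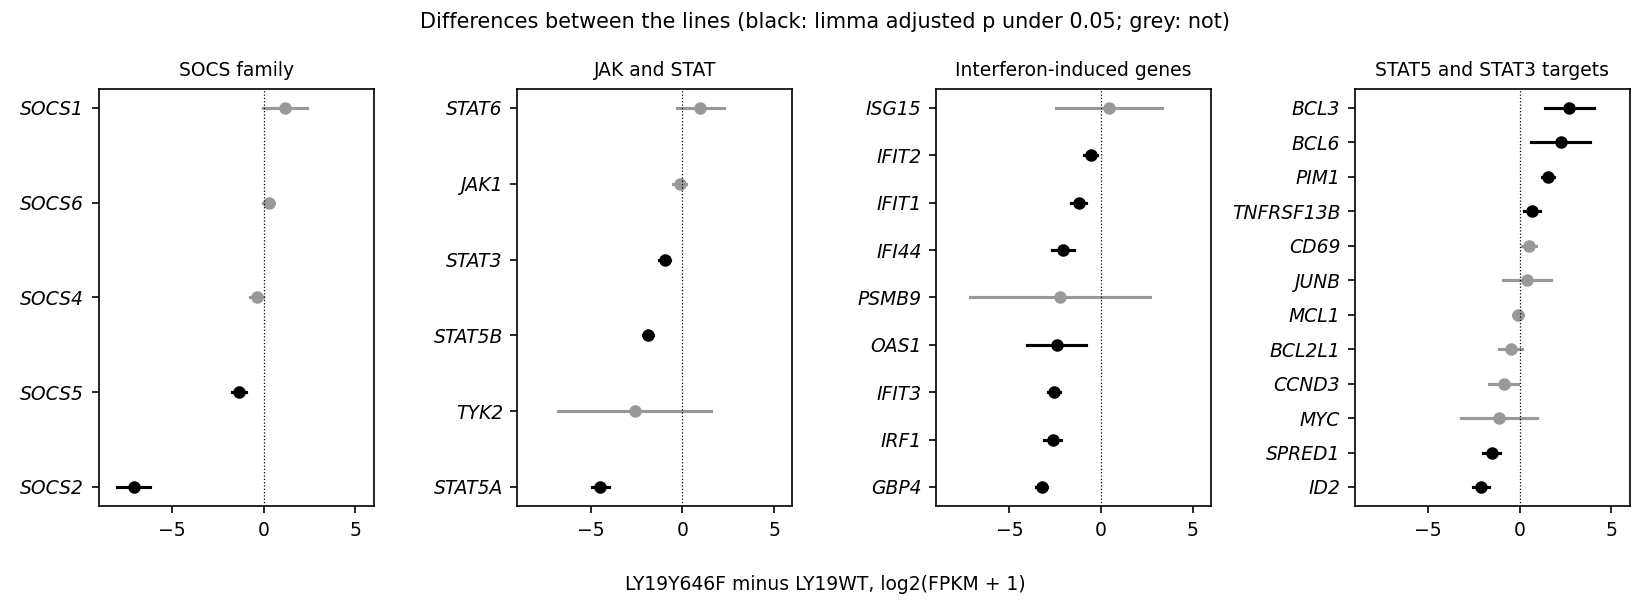
Differences of LY19Y646F minus LY19WT on the log2(FPKM + 1) scale for the tested members of the SOCS family and of 3 related lists. Points are limma estimates from 3 libraries per line, bars are 95% intervals, and black marks an adjusted p under 0.05. SOCS2 at -7.09 and STAT5A at -4.48 lie farthest to the left.

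Receptors upstream of the family changed in both directions. Of 15 tested cytokine receptor chains 6 were higher and 3 lower in LY19Y646F (60.0% called). IL4R, the receptor chain for interleukins 4 and 13, measured 61.9, 46.2 and 42.4 FPKM in LY19Y646F and 3.74, 6.04 and 2.91 FPKM in LY19WT (limma adjusted p of 0.00058). IL7R, a receptor of developing lymphocytes, averaged 19.9 ± 2.80 FPKM in LY19Y646F and 5.78 ± 0.800 FPKM in LY19WT (SD, n = 3 each, limma adjusted p of 0.0011). IL10RA, a chain of the interleukin 10 receptor, averaged 2.88 ± 0.988 FPKM in LY19Y646F and 0.00530 ± 0.00537 FPKM in LY19WT (limma adjusted p of 0.0017). IFNGR2, a chain of the interferon gamma receptor, measured 27.5, 48.4 and 36.3 FPKM in LY19Y646F and was listed at 0 in each LY19WT library, although the authors' deposited table gives it 35.0 FPKM in LY19Y646F and 2.19 FPKM in LY19WT. IFNGR1, the partner chain of IFNGR2, went the other way, at 14.2, 16.1 and 17.9 FPKM in LY19Y646F and 80.9, 76.3 and 79.6 FPKM in LY19WT (limma adjusted p of 9.8e-05). The other lower chains were IL15RA and IL13RA1, which fell by 2.09 and 0.92 (limma adjusted p of 0.0024 and 0.0037). GHR and PRLR, the receptors that SOCS2 is best known for restraining, were among 13 receptor chains below the level for testing.

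Other brakes on cytokine and kinase signalling also moved both ways. Of 15 tested inhibitors outside the SOCS family 5 were higher and 3 lower in LY19Y646F (53.3% called). PTPRC, the phosphatase CD45, which can dephosphorylate JAK kinases, measured 70.6, 87.9 and 92.6 FPKM in LY19Y646F and 3.21, 4.17 and 4.36 FPKM in LY19WT (limma adjusted p of 4.9e-05). CBLB, a ubiquitin ligase that restrains antigen receptor signalling, rose by 2.31, the phosphatase PTPN6 (SHP-1) by 1.89 and SPRED2, an inhibitor of RAS signalling, by 0.78 (limma adjusted p of 0.00039, 0.011 and 0.0032). DUSP6, a phosphatase that inactivates ERK kinases, was among the lower genes, at 0.0898, 0.310 and 0.143 FPKM in LY19Y646F and 103, 74.1 and 49.3 FPKM in LY19WT (limma adjusted p of 9.1e-05). SPRED1, the paralog of SPRED2, fell by 1.54 and SPRY1, another inhibitor of receptor kinase signalling, by 1.27 (limma adjusted p of 0.0025 and 0.00090). Of 4 tested ligase partners of the SOCS box 1 was higher and 0 lower, or 25.0% called, below the 33.3% of all tested genes. That gene was TCEB1, which encodes elongin C, at 169, 198 and 188 FPKM in LY19Y646F and 108, 91.2 and 120 FPKM in LY19WT (limma adjusted p of 0.0073). CUL5 was among 6 partners left out for shared or failed rows. Of 8 tested genes for other SOCS box proteins 3 were higher and 0 lower, or 37.5% called, near the 33.3% of all tested genes. They were ASB2, at 35.2, 2.63 and 17.1 FPKM in LY19Y646F and at most 0.0494 FPKM in LY19WT, ASB13, which rose by 2.07, and SPSB1, which rose by 1.17 (limma adjusted p of 0.024, 0.0024 and 0.048). For ASB2 the authors' deposited table gives only 1.94 FPKM in LY19Y646F and 0 in LY19WT.

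The genes closest in pattern to the called members were found among tested protein-coding genes, by the root mean square difference of centred log2(FPKM + 1) over the 6 libraries. Closest to SOCS2 were DNTT, the terminal transferase of antigen receptor rearrangement, at a distance of 0.351, and F13A1, a coagulation factor subunit, at 0.396. DNTT, itself 1 of the precursor B cell markers above, measured 0.0481, 0.0816 and 0.0814 FPKM in LY19Y646F and 90.7, 170 and 99.7 FPKM in LY19WT, so that replicates 1 and 3 of LY19WT were close to each other, unlike for SOCS2. Closest to SOCS5 were ZMYM6, a zinc finger gene, at 0.0307 and ZADH2, an oxidoreductase gene, at 0.0419. ZMYM6 averaged 10.8 ± 1.06 FPKM in LY19Y646F and 29.1 ± 4.10 FPKM in LY19WT, and ZADH2 2.34 ± 0.208 FPKM in LY19Y646F and 7.35 ± 0.640 FPKM in LY19WT (SD, n = 3 each).

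The authors' deposited table of line means, which holds 13674 genes, has rows for 5 members. Its log2 fold changes of LY19Y646F over LY19WT are -11.25 for SOCS2, -1.83 for SOCS5, -0.57 for SOCS4, 2.41 for SOCS1 and -6.65 for CISH. For SOCS1 it gives 3.45 FPKM in LY19Y646F and 0.648 FPKM in LY19WT, for SOCS2 0.0566 and 138 FPKM and for SOCS4 13.9 and 20.6 FPKM in LY19Y646F and LY19WT. In that table SOCS1 shares its interval with RMI2 and SOCS2 with SOCS2-AS1, as CISH does with MAPKAPK3. The part of this sharing in its values was not tested. For the 4 members tested here that it holds, its direction was that of the library values. That table was made from the same libraries and is no independent measurement.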

How the data were processed

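The 6 libraries came from a strand-preserving mRNA kit with single-end reads, per the labels' protocols. STAR 2.5.3a, Cufflinks 2.2.1 and Cuffdiff 2.2.1 and the hg19 build are named in the submitters' processing notes. The authors deposited FPKM per gene and library with 95% limits, from loci assembled in each library alone, per the file headers, and a table of mean FPKM per line with a log2 fold change. Rows without a gene name (20.1% to 26.2%) entered no test. Fragment numbers implied by the limits were whole within 0.05 for 42.8% to 45.1% of rows examined, so reads were not recovered and depth is unknown.

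Rows were joined by symbol. A row counted for a gene that was its only protein-coding name (types from GENCODE 29), and genes with any shared or failed row were left out, 8938 of 56584 symbols. Genes averaging at least 0.5 FPKM were tested on log2(FPKM + 1) values (limma 3.58.1, R 4.3.3, eBayes with a trend, no block, threshold 0.05), a fit tested on simulated data. Exact permutation tests used scipy 1.17.1 in Python 3.11.15 (pandas 2.3.3, numpy 2.4.6), and plots matplotlib 3.10.9. Starts were converted to count from 1. Members and lists were chosen with earlier results of these data known. From each list the text names up to 4 called genes with the smallest adjusted p, first from the direction with more calls, and for each called member the 2 genes nearest in pattern. Other genes named, as neighbours, markers or list genes outside that rule, were chosen after their values were seen. One gene of the JAK and STAT list is not reported here. Alternatives were the pseudocount, filters, row rules, scaling, library weights, a replicate block and each library left out.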

Additional observations from a re-analysis of the deposited data

How the results depend on the processing

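SOCS2 and SOCS5 stayed lower in LY19Y646F at a limma adjusted p under 0.05 in each of 14 alternatives, from -9.92 to -6.88 and from -1.75 to -1.10 on the log2 scale. With a pseudocount of 0.1 SOCS2 was -9.92, and SOCS1 was 1.86 at an adjusted p of 0.087. Library weights raised the genes called from 3567 to 5773 (2935 higher, 2838 lower) and brought SOCS1 (0.88), SOCS4 (-0.36) and SOCS6 (0.27) past the threshold, and quantile scaling brought SOCS6 past it (0.55). Leaving out 1 library at a time gave 2789 to 4070 called genes (1333 to 2161 higher, 1448 to 1909 lower), and differences of 0.63 to 1.4995 for SOCS1, -7.50 to -6.88 for SOCS2, -0.48 to -0.31 for SOCS4, -1.44 to -1.29 for SOCS5, 0.24 to 0.33 for SOCS6 and 2.07 to 3.77 for SOCS7. SOCS7 was 2.70 with merged rows in the fit, at a limma adjusted p of 0.13. With a filter at 2 FPKM, SOCS1 averaged too low to be tested. SOCS7 has no value with other filters, the block, quantile scaling or library weights, since its merged rows kept it out of those fits. The causes were not tested.

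Equal replicate numbers did not pair the libraries by the rule used: deviations of same-numbered libraries correlated across genes at 0.264, 0.0991 and 0.133, and not all 3 values exceed 0.1. Each library did correlate best with its own number, a hint from the data and not from the design, though for number 2 the margin was small (0.0991 against 0.0907). With the replicate block 3884 genes were called, and SOCS4 kept its difference of -0.39 and passed, at an adjusted p of 0.049. The block changed no other member's call. Depth is unknown, so SOCS3 and CISH are reported as listed and not as absent.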
